A study of Homo sapiens with 18 samples.

Results

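The RAS genes and the parts of the ER:RAS fusion were followed through 18 poly(A) RNA-sequencing libraries of IMR90 ER:RAS cells. IMR90 is a line of human lung fibroblasts, and ER:RAS is an oncogenic RAS joined to the hormone-binding part of the oestrogen receptor. Members were the 6 rows of the count table named HRAS, NRAS, RRAS, RRAS2, MRAS and ESR1, of 28266 gene rows, and all 6 were among the 14341 rows that passed the filter on low counts. Every group carried the retroviral pLNC-ER:RAS-neo construct. Control cells received DMSO and senescent cells received 100 nM 4-hydroxytamoxifen (4OHT), a ligand of the oestrogen receptor, for 7 days, and each state was then treated for 3 more days with DMSO, with IMP1088 at 300 nM or with DDD86481 at 1.5 µM, and collected at day 10. This made 6 groups of 3 libraries. IMP1088 and DDD86481 inhibit N-myristoyltransferases (NMT), which attach the fatty acid myristate to proteins.

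The comparisons asked how the genes differed between senescent and control cells, and how each NMT inhibitor (NMTi) moved them in either state. Whether the cells were a pool or a clone, and which promoter drove the fusion, were not given in the sources used here. Cells without the construct were not analysed here, so 4OHT as a drug and the RAS it activates cannot be told apart. The study describes replicates of these conditions as independent experiments, while the labels give them numbers only. In bulk RNA, fewer cells that express a gene and less RNA per cell cannot be told apart either.

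RAS proteins are small GTPases that switch between a GDP-bound and a GTP-bound form. Guanine nucleotide exchange factors (GEFs) load them with GTP, GTPase-activating proteins (GAPs) return them to the GDP form, and GTP-bound RAS engages effectors such as RAF kinases, phosphoinositide 3-kinases and exchange factors of RAL. HRAS and NRAS are the classical members that are mutated in cancer, whereas RRAS, RRAS2 (TC21) and MRAS are relatives that share part of their effectors. RRAS is known for its part in integrin adhesion, and MRAS for a phosphatase complex with SHOC2 that activates RAF. ESR1 encodes oestrogen receptor α, a nuclear receptor that activates transcription when bound by hormone. Fused to its hormone-binding part, an oncoprotein stays inactive until 4OHT is added, and sustained RAS signalling drives normal fibroblasts into oncogene-induced senescence (OIS).

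The members lie on 5 chromosomes. On GRCh37, HRAS (ENSG00000174775) is at chr11:532242-537321 on the minus strand, NRAS (ENSG00000213281) at chr1:115247090-115259392 on the minus strand, RRAS (ENSG00000126458) at chr19:50138549-50143400 on the minus strand, RRAS2 (ENSG00000133818) at chr11:14299468-14386052 on the minus strand, MRAS (ENSG00000158186) at chr3:138066490-138124376 on the plus strand and ESR1 (ENSG00000091831) at chr6:151977826-152450754 on the plus strand. NMT acts on proteins whose initiator methionine is followed by glycine. The first 30 coding bases of 5 of the genes, read from the GENCODE transcripts on GRCh37, are shown 5′ to 3′ for that reason, each with its position and strand and with the second codon in capitals.
HRAS, chr11:534293-534322, minus strand: atgACGgaatataagctggtggtggtgggc
RRAS, chr19:50143326-50143355, minus strand: atgAGCagcggggcggcgtccgggacaggg
RRAS2, chr11:14380387-14380416, minus strand: atgGCCgcggccggctggcgggacggctcc
MRAS, chr3:138091726-138091755, plus strand: atgGCAaccagcgccgtccccagtgacaac
ESR1, chr6:152129048-152129077, plus strand: atgACCatgaccctccacaccaaagcatct
None of these 5 had a glycine codon, GGN, in second place, against 7.67% of 18837 genes of the table with a coding sequence in the annotation. The start codon of the fusion itself was not analysed here.

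HRAS and NRAS encode proteins of equal length, 189 codons each, and the reads were 75 bases long, so the same window of both coding sequences was compared to see whether a read could fall on either row. Their 567 coding bases differed at 153 positions, an identity of 73.0%. The 75-base window with the fewest differences held 12 of them, and the window with the most, coding bases 480 to 554 in the part that differs between RAS proteins, held 37. The latter is shown 5′ to 3′ with the differing bases in capitals, from chr11:532652-532726 for HRAS and chr1:115251172-115251246 for NRAS, both on the minus strand of GRCh37.
HRAS, 480 to 554: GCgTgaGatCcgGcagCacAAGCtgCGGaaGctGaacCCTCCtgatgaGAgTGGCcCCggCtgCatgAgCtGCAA
NRAS, 480 to 554: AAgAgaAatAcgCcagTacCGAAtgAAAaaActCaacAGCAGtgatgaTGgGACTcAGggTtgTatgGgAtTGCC
No run of 75 bases was shared by the coding sequences of any of the 15 pairs of members, and the longest shared run was 23 bases, between RRAS and RRAS2. Reads of the fusion that match HRAS or ESR1 stand on those rows together with reads of the cells' own genes, and the table holds no way to part them. Which RAS gene the construct carries was not given in the sources used here.

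Library totals ran from 16143716 to 23189950 counts, and 3 counts, the limit that a count of 0 allows, came to between 0.121 and 0.187 CPM, the normalised read count scaled by TMM to library size. Each member had at least 282 counts in every library. All of 10 fibroblast markers were detected, and their summed level was 24830 to 36280 CPM in control and 11560 to 17060 CPM in senescent libraries. Of 6 leukocyte markers, 2 were at 0 throughout and the sum stayed between 0.470 and 1.68 CPM, while 6 epithelial markers summed to between 7.12 and 41.4 CPM and 5 endothelial markers to between 14.0 and 55.4 CPM. Control DMSO replicate 3 stood apart from its group. With genes split into 3 classes by transcript length, the median log2 deviation from the other libraries of the group was lower for the longest class than for the shortest by a difference of -0.67 in that library. Replicate 1 had a difference of 0.51 and replicate 2 of 0.16, and the 15 libraries of the other groups lay between -0.17 and 0.22. Members' values that use control DMSO are therefore also given without replicate 3, and for named genes of the lists the loss of a call without it is stated.

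Per kilobase of the annotated transcript, HRAS was the most abundant member in control DMSO cells, at 2915 CPM per kb, followed by ESR1 at 240 and RRAS at 88.0. The lengths used for HRAS and ESR1 were those of the human genes, since that of the fusion transcript was not given. NRAS (21.4 to 22.3 CPM per kb), RRAS2 (18.3 to 23.6) and MRAS (17.8 to 22.2) followed, and the libraries of these 3 neighbours overlapped. In senescent DMSO cells the order per kilobase was HRAS (5262), ESR1 (499), RRAS (131), MRAS (16.5), NRAS (11.1) and RRAS2 (8.40), and there the libraries of MRAS (16.4 to 16.6), NRAS (9.97 to 12.03) and RRAS2 (8.14 to 8.87) no longer overlapped. HRAS took 90.8% ± 0.159 (SD, n = 3) of the counts of the 5 RAS rows in control DMSO and 95.5% ± 0.233 in senescent DMSO libraries. Together HRAS and ESR1 made up 0.469 to 0.717% of all counts in the 9 control and 0.710 to 0.877% in the 9 senescent libraries.

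All 6 members differed between senescent and control cells given DMSO, where 68.5% of all 14341 genes did. HRAS, ESR1 and RRAS rose, 3 of 6 against 32.5% of all genes that rose, and NRAS, RRAS2 and MRAS fell, 3 of 6 against 36% that fell. Most genes moved, so a call alone sets no member apart, and the sizes and directions are given for each.

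HRAS stood at 3031, 3079 and 3248 CPM in the control DMSO libraries and at 5516, 5312 and 6062 CPM in the senescent ones. The groups did not overlap. The log2 fold change was 0.85 (SE 0.0925, adjusted p = 7.51e-08). ESR1 stood at 1784, 1571 and 1197 CPM in control DMSO and at 3181, 2949 and 3332 CPM in senescent DMSO libraries, again without overlap. Its log2 fold change was 1.06 (SE 0.131, adjusted p = 4.9e-07). The low value of 1197 CPM came from control DMSO replicate 3, and without that library ESR1 rose by 0.91 and HRAS by 0.88, close to each other. RRAS stood at 72.9, 81.6 and 105.7 CPM in control DMSO and at 125.1, 122.3 and 139.7 CPM in senescent DMSO libraries. The groups did not overlap, and the high control value was again that of replicate 3. RRAS rose by 0.57 on the log2 scale (SE 0.114, adjusted p = 0.000165), and by 0.74 without replicate 3.

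NRAS moved the other way from HRAS. It stood at 92.6, 96.4 and 96.5 CPM in control DMSO and at 48.95, 52.04 and 43.1 CPM in senescent DMSO libraries, and each senescent library lay far below each control library. NRAS fell by 0.99 on the log2 scale (SE 0.0888, adjusted p = 4.44e-09), and by 0.98 without control DMSO replicate 3. RRAS2 stood at 42.8, 53.6 and 55.3 CPM in control DMSO and at 19.1, 20.8 and 19.2 CPM in senescent DMSO libraries. It fell by 1.36 (SE 0.132, adjusted p = 1.39e-08), a larger log2 change than that of the other 5 members in this comparison, and by 1.29 without replicate 3. MRAS stood at 90.9, 83.5 and 72.9 CPM in control DMSO and at 67.8, 68.0 and 67.4 CPM in senescent DMSO libraries. Its lowest control library was near the senescent ones. MRAS fell by 0.28 (SE 0.0875, adjusted p = 0.0073), or by 0.36 without replicate 3 (adjusted p = 0.000486), and this call was lost without control DMSO replicate 1 (adjusted p = 0.0527), when only the compared groups were fitted (adjusted p = 0.0718) and with no filter on low counts (adjusted p = 0.0513).

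**Figure D1:**
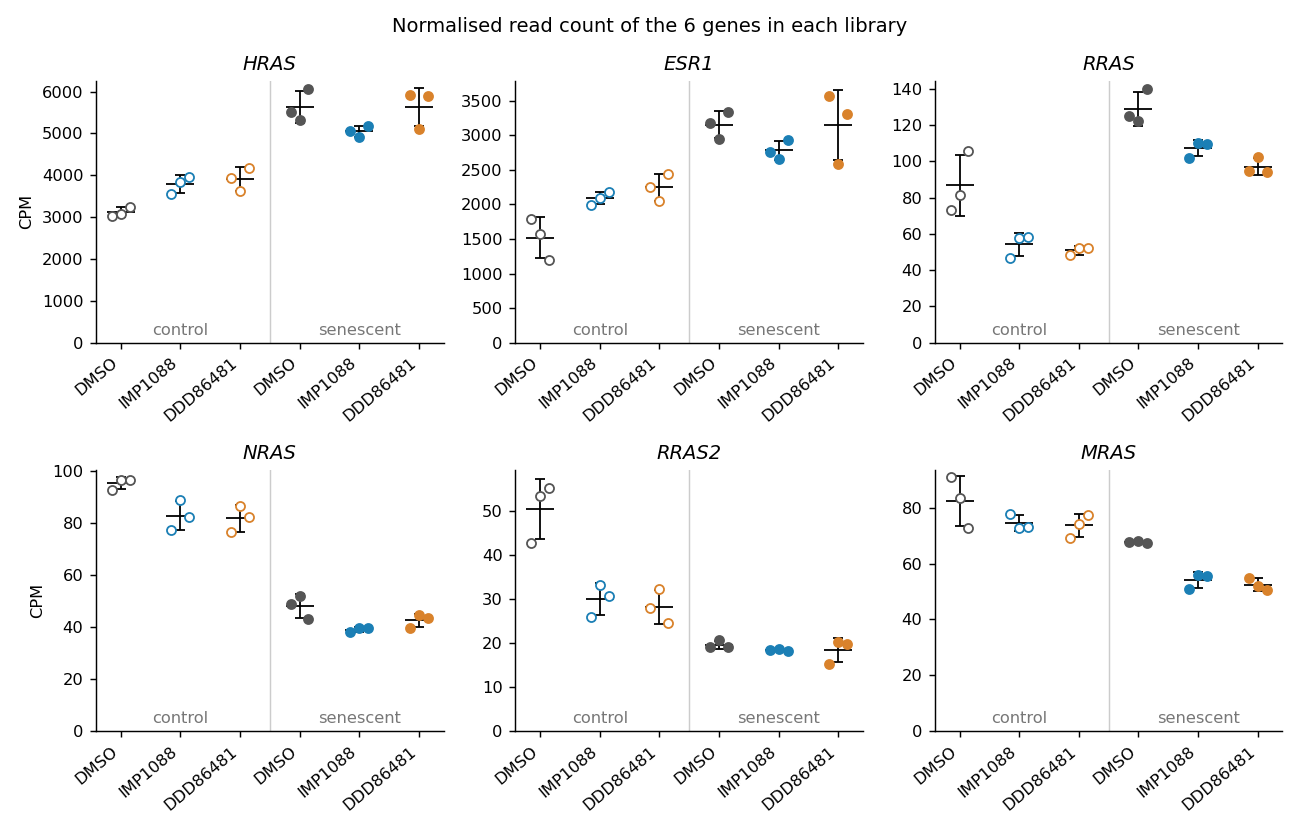
Normalised read count in CPM (y axis, from 0, a separate scale for each gene) in each of the 18 libraries, by group (x axis); open points are control and filled points senescent libraries, and bars give the mean ± SD of 3 libraries. HRAS and ESR1 stepped up from control DMSO to the control NMTi groups and again to the senescent groups, while NRAS, RRAS2 and MRAS were lower in senescent than in control cells given the same drug.

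The 6 members kept their directions when senescent and control cells were compared with either NMTi present. All 6 passed the test with IMP1088, where 74.1% of all genes did, and all 6 with DDD86481, where 74% did. With IMP1088, 3 of 6 rose (36.2% of all genes) and 3 fell (37.9%), and with DDD86481, 3 rose (36.1%) and 3 fell (37.9%). HRAS was 0.41 higher on the log2 scale in senescent cells with IMP1088 (SE 0.0920, adjusted p = 0.000432) and 0.53 higher with DDD86481 (SE 0.0921, adjusted p = 3.24e-05). ESR1 was 0.41 higher with IMP1088 (SE 0.130, adjusted p = 0.00744) and 0.49 higher with DDD86481 (SE 0.130, adjusted p = 0.00209). For RRAS the corresponding differences were 0.98 (SE 0.116) and 0.93 (SE 0.116). NRAS was lower in senescent cells by a log2 difference of -1.08 with IMP1088 (SE 0.0894) and -0.94 with DDD86481 (SE 0.0891). RRAS2 differed by -0.70 (SE 0.132) and -0.61 (SE 0.133), and MRAS by -0.46 (SE 0.0880) and -0.49 (SE 0.0882).

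In control cells the NMTi raised HRAS and ESR1 and lowered RRAS and RRAS2. Of the 6 members, 4 passed the test with IMP1088, against 33.7% of all genes, and 4 with DDD86481, against 36.6%. With IMP1088, 2 of 6 rose (16.3% of all genes) and 2 fell (17.4%), and with DDD86481, 2 rose (17.8%) and 2 fell (18.7%). Both NMTi comparisons in a state share their DMSO libraries, so their values are not independent of each other, and since the doses differed the inhibitors are given side by side without a test between them.

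HRAS stood at 3555, 3838 and 3966 CPM in control cells with IMP1088 and at 3933, 3618 and 4173 CPM with DDD86481. All 6 values lay above the 3 control DMSO libraries. The log2 fold change was 0.28 with IMP1088 (SE 0.0919, adjusted p = 0.0241) and 0.33 with DDD86481 (SE 0.0920, adjusted p = 0.00938), or 0.31 and 0.35 without control DMSO replicate 3. The IMP1088 call was lost in the fit of the compared groups alone (adjusted p = 0.108), under upper quartile scaling (adjusted p = 0.0523) and without control IMP1088 replicate 2 (adjusted p = 0.0518) or replicate 3 (adjusted p = 0.0639). The DDD86481 call was also lost in the fit of the compared groups alone (adjusted p = 0.0893). ESR1 stood at 1999, 2098 and 2177 CPM with IMP1088 and at 2258, 2046 and 2439 CPM with DDD86481, all above the control DMSO libraries. Its log2 fold change was 0.46 with IMP1088 (SE 0.130, adjusted p = 0.00943) and 0.57 with DDD86481 (SE 0.130, adjusted p = 0.00212). Leaving out control DMSO replicate 3 gave 0.32 with IMP1088 (adjusted p = 0.0391) and 0.42 with DDD86481 (adjusted p = 0.00736), and the IMP1088 call for ESR1 was lost in the fit of the compared groups alone (adjusted p = 0.0671).

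RRAS stood at 46.9, 57.6 and 58.04 CPM in control cells with IMP1088 and at 48.2, 52.3 and 52.3 CPM with DDD86481, below each control DMSO library. It fell by 0.68 (SE 0.115, adjusted p = 0.000145) and by 0.77 (SE 0.116, adjusted p = 3.94e-05), or by 0.51 and 0.60 without control DMSO replicate 3. RRAS2 stood at 26.1, 33.3 and 30.8 CPM with IMP1088 and at 28.1, 32.3 and 24.5 CPM with DDD86481, also below each control DMSO library and still above each senescent library. It fell by 0.75 (SE 0.128, adjusted p = 0.000149) and by 0.84 (SE 0.129, adjusted p = 4.71e-05), with values of -0.68 and -0.77 without control DMSO replicate 3.

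NRAS and MRAS did not pass the test in control cells. NRAS stood at 77.4, 88.7 and 82.2 CPM with IMP1088 and at 76.4, 86.4 and 82.2 CPM with DDD86481, all below the control DMSO libraries, with log2 fold changes of -0.20 (approximate 95% interval -0.37 to -0.03, adjusted p = 0.0804) and -0.22 (-0.39 to -0.05, adjusted p = 0.0523). The DDD86481 value passed the threshold with DESeq2 (adjusted p = 0.0327) and limma-voom (adjusted p = 0.0406), and under upper quartile scaling both passed (adjusted p = 0.0392 and 0.021). Without control DMSO replicate 3 the values of NRAS were -0.19 (adjusted p = 0.127) and -0.21 (adjusted p = 0.0886). MRAS stood at 77.9, 72.6 and 72.9 CPM with IMP1088 and at 69.3, 74.1 and 77.5 CPM with DDD86481, overlapping control DMSO. Its log2 fold changes were -0.15 (-0.32 to 0.02, adjusted p = 0.203) and -0.16 (-0.33 to 0.01, adjusted p = 0.15), and without control DMSO replicate 3 both passed, at -0.23 for IMP1088 (adjusted p = 0.0417) and -0.24 for DDD86481 (adjusted p = 0.0291). Without control DMSO replicate 1 they were -0.07 (adjusted p = 0.57) and -0.09 (adjusted p = 0.472).

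In senescent cells NRAS and MRAS passed the test with IMP1088, and RRAS and MRAS with DDD86481. Of the 6 members, 2 passed with IMP1088, against 44.4% of all genes, and 2 with DDD86481, against 43.2%. All of these calls were lower, 2 of 6 against 23.9% of all genes with IMP1088 and 2 of 6 against 23.1% with DDD86481, and 0 of 6 rose (20.6% and 20.1% of all genes). By edgeR 0 of 6 were higher at an unadjusted p under 0.05 either, and DESeq2 and limma-voom also called 0 higher.

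MRAS stood at 50.7, 55.9 and 55.4 CPM in senescent cells with IMP1088 and at 54.98, 51.98 and 50.5 CPM with DDD86481, below each senescent DMSO library. It fell by 0.33 (SE 0.0884, adjusted p = 0.00493) and by 0.37 (SE 0.0885, adjusted p = 0.00207). NRAS stood at 37.9, 39.5 and 39.6 CPM with IMP1088, below each senescent DMSO library, and at 39.7, 44.5 and 43.7 CPM with DDD86481, which overlapped it. It fell by 0.30 with IMP1088 (SE 0.0899, adjusted p = 0.01), a call lost without senescent DMSO replicate 2 (adjusted p = 0.0633). With DDD86481 the log2 fold change of NRAS was -0.17 (-0.35 to 0.00, adjusted p = 0.128), and it passed without senescent DMSO replicate 3 (-0.25, adjusted p = 0.0451). RRAS stood at 102.1, 110.1 and 109.5 CPM with IMP1088 and at 94.7, 102.6 and 94.1 CPM with DDD86481, all below the senescent DMSO libraries. It fell by 0.41 with DDD86481 (SE 0.114, adjusted p = 0.00648), while the IMP1088 value of -0.27 (-0.49 to -0.04) had an adjusted p of 0.0628, which passed with DESeq2 (0.0424), with RLE size factors (0.047) and in the fit of the compared groups alone (0.00505).

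The HRAS and ESR1 rows did not pass the test in senescent cells. HRAS stood at 5063, 4906 and 5172 CPM with IMP1088 and at 5905, 5113 and 5901 CPM with DDD86481. Its log2 fold changes were -0.16 (-0.34 to 0.02, adjusted p = 0.174) and 0.0024 (-0.18 to 0.18, adjusted p = 0.989). ESR1 stood at 2759, 2658 and 2930 CPM with IMP1088 and at 3568, 2588 and 3310 CPM with DDD86481. Its log2 fold changes were -0.18 (-0.43 to 0.07, adjusted p = 0.272) and 0.00069 (-0.25 to 0.25, adjusted p = 0.999). With IMP1088 each library of both rows lay below the senescent DMSO libraries, and with DDD86481 the groups overlapped. RRAS2 stood at 18.6, 18.6 and 18.3 CPM with IMP1088 and at 15.4, 20.3 and 19.8 CPM with DDD86481, with a log2 fold change of -0.09 for each (-0.35 to 0.17 and -0.35 to 0.18). The IMP1088 libraries lay just below those of senescent DMSO and the DDD86481 libraries overlapped them.

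**Figure D2:**
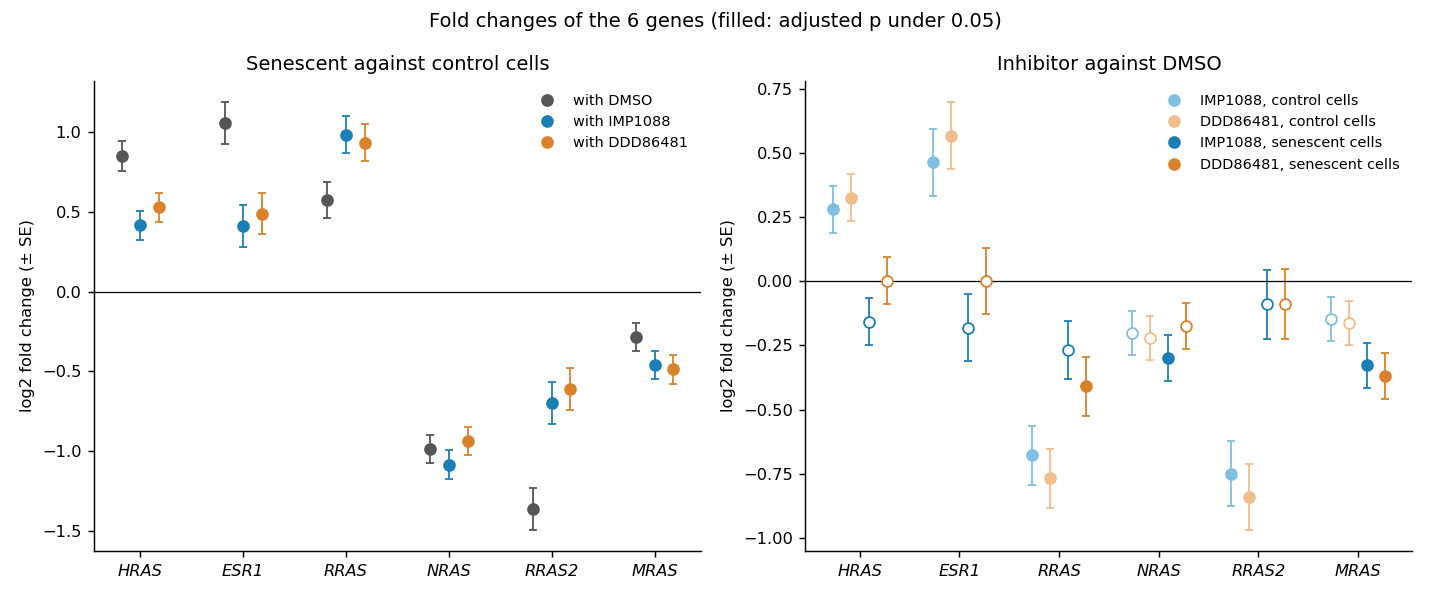
Log2 fold change with its standard error (y axis) of each member (x axis), for senescent against control cells under the same drug (left) and for each NMTi against DMSO in each state (right); filled points passed an adjusted p of 0.05 and open points did not. HRAS and ESR1 lay above 0 with the NMTi in control cells and near or below 0 in senescent cells, and RRAS2 lay far below 0 in control cells and near 0 in senescent cells.

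Whether an NMTi acted differently in the states was tested by the interaction term, the log2 effect in senescent cells less the log2 effect in control cells. It passed for 3 of 6 members with IMP1088, against 26.2% of all genes, and for 2 of 6 with DDD86481, against 30.3%. RRAS2 had an interaction of 0.66 with IMP1088 (SE 0.186, adjusted p = 0.0132) and of 0.75 with DDD86481 (SE 0.186, adjusted p = 0.00554), as it fell in control cells and did not pass the test in senescent cells. Without control DMSO replicate 3 its values were 0.59 (adjusted p = 0.0236) and 0.68 (adjusted p = 0.00929). ESR1 had an interaction of -0.64 with IMP1088 (SE 0.183, adjusted p = 0.0141) and of -0.57 with DDD86481 (SE 0.183, adjusted p = 0.0251), or of -0.50 and -0.42 without control DMSO replicate 3. The DDD86481 value was no longer past the threshold without control DDD86481 replicate 1 (adjusted p = 0.057) or 3 (0.0881), senescent DMSO replicate 3 (0.056) or senescent DDD86481 replicate 2 (0.0739), and in the fit of the compared groups alone (0.082). HRAS had an interaction of -0.44 with IMP1088 (SE 0.130, adjusted p = 0.0181), lost without control IMP1088 replicate 3 (adjusted p = 0.0513) and at -0.47 without control DMSO replicate 3, and of -0.32 with DDD86481 (SE 0.130, adjusted p = 0.0651), which passed with DESeq2 (adjusted p = 0.0162), limma-voom (0.0434) and without control DMSO replicate 3 (-0.35, adjusted p = 0.0417). RRAS had interactions of 0.41 (adjusted p = 0.0658) and 0.36 (adjusted p = 0.0987), which passed without control DMSO replicate 1 (0.52, adjusted p = 0.0101, and 0.47, adjusted p = 0.0174) and were 0.24 (adjusted p = 0.189) and 0.19 (adjusted p = 0.3) without control DMSO replicate 3. Those of NRAS and MRAS lay between -0.21 and 0.05, with adjusted p from 0.216 to 0.802, and between -0.12 and 0.04 without that library.

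ESR1 and HRAS were set against each other within each library, since 1 fusion transcript would add to both rows at once if its RAS part is that of HRAS. The number of ESR1 reads per HRAS read was 0.589, 0.510 and 0.369 in control DMSO, 0.562, 0.547 and 0.549 in control IMP1088 and 0.574, 0.565 and 0.584 in control DDD86481 libraries. In senescent cells it was 0.577, 0.555 and 0.550 with DMSO, 0.545, 0.542 and 0.566 with IMP1088 and 0.604, 0.506 and 0.561 with DDD86481. Apart from control DMSO replicate 3, at 0.369, the other 17 libraries lay between 0.506 and 0.604. The mean log2 ratio was -0.85 in the 9 senescent and -0.90 in the 9 control libraries, a difference of 0.06 (two-sided exact permutation test with states exchanged within each drug, p = 0.607, 8000 arrangements). Without control DMSO replicate 3 the difference was -0.01 (exact permutation p = 0.773). In the 6 DMSO libraries alone it was 0.22 (exact p = 0.4, where the smallest that 3 against 3 can give is 0.1).

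**Figure D3:**
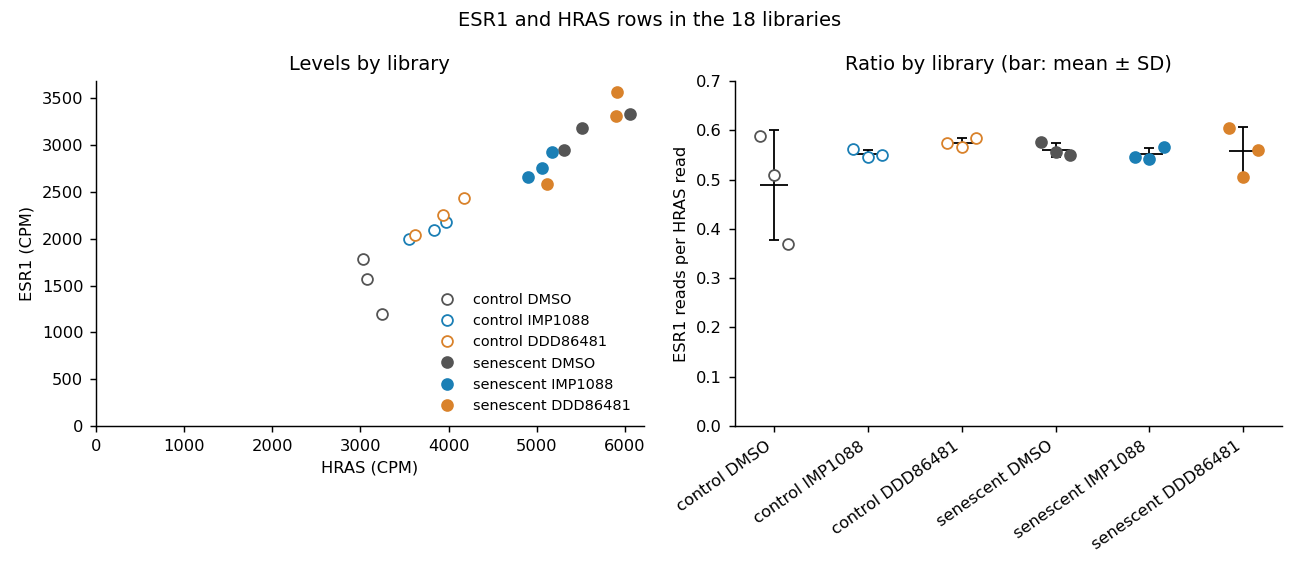
Left, ESR1 (y axis) against HRAS (x axis) in CPM in each of the 18 libraries; right, ESR1 reads per HRAS read (y axis, from 0) in each library by group, with the mean ± SD of 3 libraries. The libraries lie along a line through the groups, and control DMSO replicate 3 falls below it at a ratio of 0.369.

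Over the 18 libraries, the gene patterns most like each member were described by the Pearson correlation of log2 CPM, among 12738 other genes with a mean of at least 1 CPM. These libraries share 2 states that differ strongly, so high values are common, and no test was made of them. ESR1 had r = 0.94 with HRAS and took rank 100 among all genes (Spearman's rho 0.98). Without control DMSO replicate 3, and with no mean taken off, r was 0.98 and the rank 1. After each state's mean was taken off in the 18 libraries, r was 0.82 and the rank 6. After each group's mean was taken off, r was 0.47 and the rank 1204. The 3 genes nearest to HRAS were SNX8 (r = 0.97), ASB1 (r = 0.97) and SCAF1 (r = 0.97), and those nearest to ESR1 were GEMIN4 (r = 0.97), CLIP2 (r = 0.97) and FTSJ3 (r = 0.97). For NRAS they were LMOD1, TBL1XR1 and FZD7 (each r = 0.99), for RRAS ARPC2 (r = 0.99), RHOC (r = 0.98) and ITGB1BP1 (r = 0.98), and for MRAS PARVA, TRHDE and TRIM68 (each r = 0.98). RRAS2 lay nearest to BUB1 (r = 0.97), CCNB2 (r = 0.97) and TYMS (r = 0.97), a kinase of the mitotic checkpoint, a mitotic cyclin and an enzyme of thymidylate synthesis. Within the members, NRAS and RRAS2 had r = 0.90, while RRAS2 and ESR1 had r = -0.95.

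The lists of genes that load, adapt and switch off RAS also held calls, in both directions among exchange factors and adaptors. In senescent against control cells given DMSO, 5 of 7 tested exchange factors passed (4 higher, 1 lower, median log2 fold change 0.74), 8 of 8 adaptors (6 higher, 2 lower, median 0.60), and 3 of 8 GAPs (3 higher, median 0.40), against a median of -0.05 over all genes and 32.5% higher and 36% lower. The shares that passed were 71.4% of exchange factors, 100% of adaptors and 37.5% of GAPs, against 68.5% of all genes. Without control DMSO replicate 3 the medians were 0.47, 0.48 and 0.16. The adaptors called were then 5 higher and 2 lower, so not all 8 passed, and 2 GAPs were also called lower. RASGRP3, an exchange factor for RAS and RAP, rose from 0.724 ± 0.429 to 4.30 ± 0.489 CPM (SD, n = 3; log2 fold change 2.53, adjusted p = 1.55e-07). RASGRF1 also passed (adjusted p = 0.0133), on 2 to 6 counts in each control DMSO and 8 to 15 in each senescent DMSO library. RASGRP1 had 15 to 22 counts in each control DMSO library and 1 in each senescent one. SHC1, an adaptor between receptors and GRB2, rose from 506 ± 65.7 to 1576 ± 66.1 CPM (1.64, adjusted p = 1.1e-11), and SHC3 from 34.5 ± 8.66 to 92.9 ± 7.02 CPM (1.43). GAB1, a docking protein, fell by 1.29. Among the GAPs, RASA2 (1.07), RASA3 (0.75) and RASA1 (0.72) rose.

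Scaffold and turnover genes and effectors showed a similar mixture in that comparison. Of 8 scaffold and turnover genes, 7 passed (5 higher, 2 lower, median 0.56), 87.5% against 68.5% of all genes. SPRED3 and SPRED2, which hold back RAS signalling, rose by 2.11 and 1.07, and KSR1, a scaffold of the RAF, MEK and ERK kinases, fell by 1.40. Of 16 effectors, 9 passed (6 higher, 3 lower, median 0.26, or 0.11 without control DMSO replicate 3), a share of 56.2%, below that of all genes. PIK3CD rose from 18.5 ± 4.44 to 104 ± 6.88 CPM (2.48, adjusted p = 2.13e-10) and RGL2, which activates RAL, from 54.7 ± 3.53 to 105 ± 6.52 CPM (0.94). PIK3CG had 0 to 5 counts in each control DMSO library and 81 to 92 in each senescent one. Of 14 genes for the lipid anchors of RAS and its transport, 12 passed (9 higher, 3 lower, median 0.53), a share of 85.7%. Without control DMSO replicate 3 these were 9 higher and 2 lower. LYPLA1, a thioesterase that removes palmitate, rose from 38.5 ± 9.78 to 176 ± 16.2 CPM (2.20, adjusted p = 5.02e-11), RAP1GDS1, a chaperone of small GTPases, rose by 0.89, and ABHD17C, a further depalmitoylase, fell by 1.21.

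With the NMTi in senescent cells more called genes were lower than higher in each list around RAS, effectors and GAPs included. Of all genes 23.9% were lower and 20.6% higher with IMP1088, and 23.1% and 20.1% with DDD86481. Of 16 effectors, 9 were lower and 1 higher with IMP1088 (median log2 fold change -0.37), and 10 lower and 1 higher with DDD86481 (-0.50), against -0.04 for each over all genes. Of 8 GAPs, 4 were lower and 1 higher with IMP1088 and 5 lower with DDD86481 (medians -0.43 and -0.67), and the interaction term was negative and past the threshold for 4 of 8 with IMP1088, against 14.2% of all genes, and for 4 of 8 with DDD86481, against 15.9%. For effectors it was so for 3 and 4 of 16, for scaffold and turnover genes for 4 and 4 of 8, and for adaptors for 4 and 3 of 8. With either NMTi it was so for 1 of 7 exchange factors and 0 of 14 lipid-anchor genes. Without control DMSO replicate 3 the effector counts were 2 and 3, and those of the GAPs stayed at 4 with either NMTi. The counts of scaffold and turnover genes and of adaptors did not change either. RASA1 fell from 118 ± 6.27 CPM to 40.5 ± 2.71 with IMP1088 (-1.54, adjusted p = 2.19e-09) and to 44.97 ± 4.37 with DDD86481 (-1.39, adjusted p = 8.38e-09). DAB2IP fell by 0.80 with IMP1088. RASA4 passed with DDD86481 (adjusted p = 0.0286) on 6 to 12 counts in each senescent DMSO library and 1 to 5 with the drug. SPRED1 fell from 98.3 ± 16.5 CPM to 39.2 ± 7.45 and 41.2 ± 4.4, and SPRED2 from 100.5 ± 5.33 to 58.3 ± 1.09 and 56.4 ± 11.3, among 3 of 8 scaffold and turnover genes that were lower with either NMTi, while 1 was higher with either.

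Several effectors and exchange factors fell in the same comparisons. PIK3CG fell from 5.26 ± 0.405 CPM to 1.34 ± 0.202 with IMP1088 (-1.97) and 0.987 ± 0.0982 with DDD86481 (-2.41), and its 16 to 26 counts in these libraries were above the 0 to 2 of control cells with an NMTi. RGL1, an exchange factor of RAL, fell from 79.2 ± 3.85 to 25.6 ± 1.28 CPM with DDD86481 (-1.63), and PLCE1, a phospholipase bound by RAS, fell from 3.91 ± 0.174 to 1.34 ± 0.409 CPM with IMP1088 (-1.54). RASGRP3 fell by 1.23 with IMP1088 and 1.04 with DDD86481, whereas RASGRP1 went from 1 count in each senescent DMSO library to between 8 and 12 with IMP1088 and between 5 and 13 with DDD86481. Of 7 exchange factors, 2 were lower and 1 higher with either NMTi. Of 8 adaptors, 4 were lower and 2 higher with either. PTPN11, a phosphatase that promotes RAS activation, fell from 341 ± 14.3 to 221 ± 9.73 CPM with IMP1088 and GAB1 fell by 0.59 with DDD86481, while SHC2 rose from 15.4 ± 1.79 to 25.9 ± 2.19 and 27.5 ± 4.25 CPM. Of 14 lipid-anchor genes, 2 were lower and 1 higher with IMP1088, and 3 lower and 1 higher with DDD86481. RAP1GDS1 fell by 0.61 and 0.71, FNTA, a farnesyltransferase subunit, rose by 0.30 with IMP1088 and ABHD17B rose by 0.42 with DDD86481.

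In control cells 33.7% of all genes passed with IMP1088 and 36.6% with DDD86481, and several calls of the same lists rested on control DMSO replicate 3. Of 14 lipid-anchor genes, 5 passed with either NMTi and each of them was lower, or 3 without replicate 3. ABHD17C fell by 0.76 with IMP1088 and 0.87 with DDD86481, and RAP1GDS1 by 0.63 and 0.60. SHC2 rose by 1.04 and 0.87 and GAB2 by 0.92 and 0.96 in the adaptor list, where 3 of 8 (37.5%) passed with either NMTi, a share near that of all genes. Of 7 exchange factors, 2 passed with IMP1088, both lower, and 1 with DDD86481. RASGRP1 had 3 to 5 counts and RASGRP3 4 to 7 counts in each control IMP1088 library, against 15 to 22 and 8 to 30 in control DMSO. SPRED2 rose by 0.60 and 0.65 and KSR1 by 0.56 and 0.65, among 4 of 8 scaffold and turnover genes called with either. PLCE1 had log2 fold changes of -1.37 and -1.54, among 7 of 16 effectors called with IMP1088 and 6 of 16 with DDD86481, and PIK3CD fell by 0.51 with IMP1088. The calls of SOS1 (0.53, adjusted p = 0.0344) and NF1 (0.56, adjusted p = 0.0348) with DDD86481 were lost without control DMSO replicate 3 (adjusted p = 0.141 and 0.152), as was that of BRAF, a RAF kinase (0.55, adjusted p = 0.0172, and 0.0755 without it). RASA1 fell by 0.33 with IMP1088 (adjusted p = 0.0236).

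**Figure D4:**
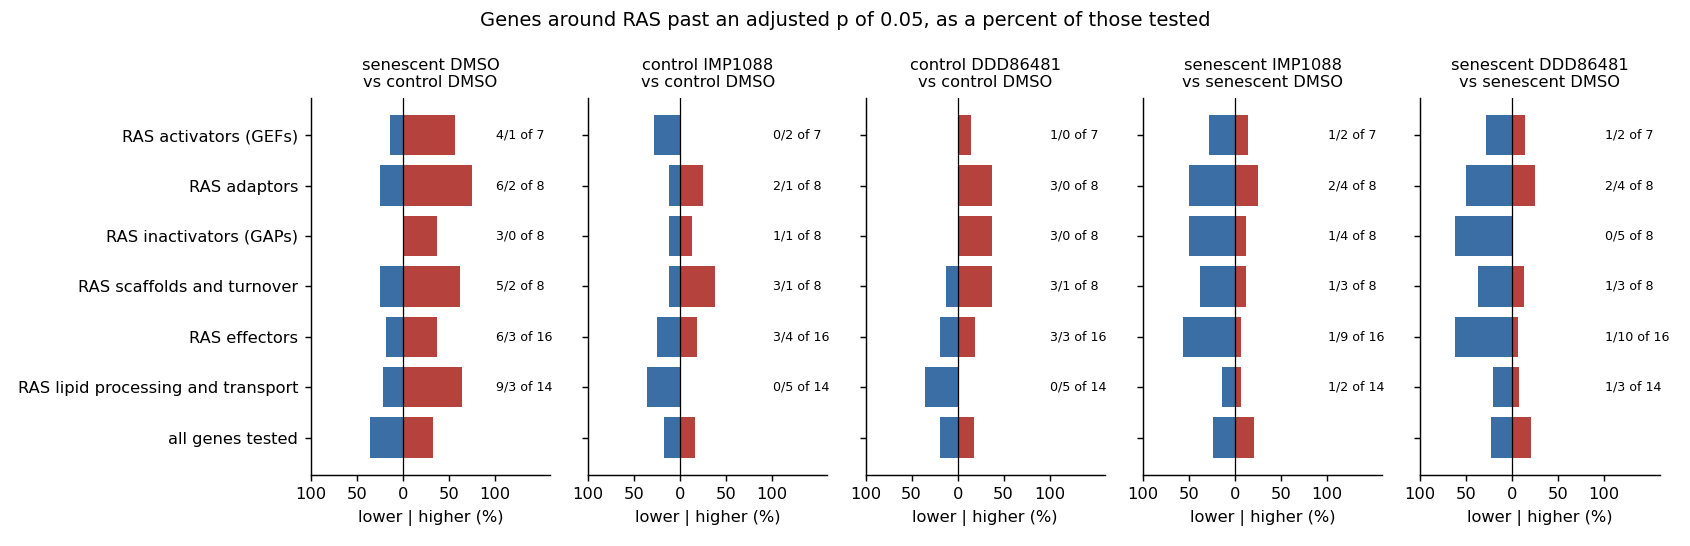
Share of the tested genes of each list around RAS that passed an adjusted p of 0.05 (x axis, percent, higher to the right in red and lower to the left in blue), by comparison; numbers beside the bars give higher and lower of those tested, and the last bar is all genes tested. In senescent against control DMSO cells more genes were higher than lower in each list shown. With either NMTi in senescent cells more of the genes that passed were lower than higher in each list shown.

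Other small GTPases of the RAS branch, listed by family, held genes with larger changes than the members. Of 30 listed, 22 were tested and 16 passed in senescent against control DMSO cells (11 higher, 5 lower, median 0.42), 72.7% against 68.5% of all genes. RASD1, a glucocorticoid-induced RAS relative, rose from 0.778 ± 0.267 to 84.1 ± 16.2 CPM (log2 fold change 6.75, adjusted p = 2.48e-15), RASL11A fell from 39.9 ± 5.61 to 0.754 ± 0.216 CPM (-5.71, adjusted p = 1.14e-14) and RASL11B went from between 89 and 106 counts in each control DMSO library to between 3 and 5 in each senescent one. With IMP1088 10 of 22 passed in senescent cells (3 higher, 7 lower) and 8 of 22 in control cells (2 higher, 6 lower). With DDD86481 these were 10 (3 higher, 7 lower) and 7 (2 higher, 5 lower), and these shares of 45.5, 36.4, 45.5 and 31.8% lay near the 44.4, 33.7, 43.2 and 36.6% of all genes. RASL12 had log2 fold changes in senescent cells of -1.56 with IMP1088 and -1.66 with DDD86481, and RASL11B had 0 to 2 counts in each of those libraries. In control cells RASL11A fell by 1.17 and 1.19, and DIRAS3, an imprinted growth suppressor, by 0.91 and 1.00.

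Receptors related to ESR1 were present at levels far under its row and moved both ways. Of 8 listed, 6 were tested and 3 passed in senescent against control DMSO cells (2 higher, 1 lower, median -0.00032), 50% against 68.5% of all genes. ESR2, oestrogen receptor β, passed (adjusted p = 7.94e-06) on 3 to 5 counts in each control and 11 to 20 in each senescent DMSO library. ESRRA rose from 27.9 ± 2.56 to 62.5 ± 5.19 CPM (1.17). GPER1, a membrane receptor for oestrogen, had log2 fold changes in control cells of -1.18 with IMP1088 and -1.60 with DDD86481, and of -0.71 in senescent cells with IMP1088. NR3C1, the glucocorticoid receptor, fell in senescent cells by 0.47 and 0.38.

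Genes known as oestrogen receptor targets, mainly from breast cancer cells, moved both ways. Of 15 listed, 11 were tested and 7 passed in senescent against control DMSO cells (3 higher, 4 lower, median 0.22), 63.6% against 68.5% of all genes. PDZK1 rose from 0.628 ± 0.163 to 4.84 ± 0.421 CPM (2.93) and RET from 0.541 ± 0.168 to 3.64 ± 0.697 CPM (2.75). CXCL12, a chemokine, had 1924 to 2067 counts in each control DMSO library and 0 to 1 in each senescent one. With IMP1088 6 of 11 passed in senescent cells (3 higher, 3 lower) and 4 of 11 in control cells (2 higher, 2 lower), and with DDD86481 6 (2 higher, 4 lower) and 5 (3 higher, 2 lower), against 44.4, 33.7, 43.2 and 36.6% of all genes in that order. IGFBP4 fell in senescent cells from 1898 ± 56.6 CPM to 1006 ± 60.5 and 1104 ± 286, RARA fell by 0.83 with DDD86481 and GREB1 rose by 1.22 with IMP1088. In control cells PDZK1 fell from between 12 and 20 counts a library to between 4 and 7 with IMP1088 and 3 and 7 with DDD86481, CA12 fell by 1.00 with IMP1088 and GREB1 rose by 1.12 with DDD86481, a call lost without control DMSO replicate 3 (adjusted p = 0.0625).

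Of the 9 ESR1 coregulators, 7 passed in senescent against control DMSO cells (3 higher, 4 lower, median -0.08), 77.8% against 68.5% of all genes. Without control DMSO replicate 3 these were 2 higher and 4 lower, with a median of -0.31. NCOA2 fell by 1.36 and CREBBP by 1.12, and CREBBP (54.2 ± 25.4 CPM) varied widely between the control DMSO libraries. In control cells EP300 was the gene called with either NMTi (0.74, adjusted p = 0.0465, and 0.95, adjusted p = 0.0117), and the IMP1088 call was lost without control DMSO replicate 3 (adjusted p = 0.176). In senescent cells 4 of 9 were lower with IMP1088 and 3 of 9 with DDD86481, and these were all that passed (44.4% and 33.3%, against 44.4% and 43.2% of all genes). The interaction term was negative and past the threshold for 4 of the 9 with IMP1088 and 7 with DDD86481, against 14.2% and 15.9% of all genes. Without control DMSO replicate 3 these counts were 3 and 6, and the median interactions went from -0.68 to -0.47 and from -0.83 to -0.65. NCOR1 fell by 0.76 and 0.71, and CREBBP by 0.81 with IMP1088.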

How the data were processed

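Poly(A) RNA of 18 libraries was sequenced with a directional kit as single 75-base reads. The authors deposited raw counts per gene symbol, 1 table with 18 columns, in which the DDD86481 libraries are called PCLX001. The study's methods name TopHat with hg19 and list HTSeq, while the submitters' processing notes name DRAGEN, STAR 2.7.8a, DESeq2 1.32.0 and hg38, so the build of the counts is unsettled. Exons of HRAS and ESR1 overlap other annotated genes over 0.864% and 0.984% of their bases and those of the other members over 0.

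Counts were filtered with filterByExpr, scaled by TMM and tested with the quasi-likelihood test of edgeR 4.0.16 (R 4.3.3) in 1 fit over 6 groups without a replicate term. Benjamini-Hochberg adjustment ran over 14341 genes per comparison, with a threshold of 0.05. SE came from the F statistic, and the prior count of log2 CPM was 2. Approximate intervals are normal-theory ranges from the SE. Alternatives used DESeq2 1.42.0, limma 3.58.1, RLE and upper quartile scaling, other filters, the compared groups alone, a replicate block and each library left out. The fit was tested on simulated data. Intervals and floors cover counting or library error only, since reads carried no molecular identifiers.

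Genes named were all members, up to 3 called genes per list with the largest change in senescent against control DMSO cells and up to 2 per NMTi comparison, and the 3 nearest patterns per member. The members, lists and tests were chosen with earlier results of these data known. Same-numbered libraries deviated together in every pair (r over 0.1) between control IMP1088 and control DMSO (r = 0.39, 0.12 and 0.23), and not in the other comparisons, and the labels tie a number to no culture or day. No pair of replicates agreed within sampling noise (chi-square per gene at least 4.89). Some genes and sequences that the rule for named genes or the sequence comparison selects are not reported here.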

Additional observations from a re-analysis of the deposited data

Results flagged for a closer look

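In 5 cases the effect of an NMTi differed between the states by the interaction term of the edgeR fit. RRAS2 had a value of 0.66 with IMP1088 and 0.75 with DDD86481, as it fell in control cells and did not pass the test in senescent cells. ESR1 had a value of -0.64 with IMP1088 and -0.57 with DDD86481, and HRAS of -0.44 with IMP1088, as these rows rose in control cells and did not pass in senescent cells. The control DMSO group enters all 5, and without its replicate 3 the values were 0.59 and 0.68 for RRAS2, -0.50 and -0.42 for ESR1 and -0.47 for HRAS, each still past the threshold. The part of the length-related difference between the control DMSO libraries in these values was not tested. No outlier test was run on single values within groups of 3 libraries.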

How the results depend on the processing

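Over the alternatives other than leaving out a library, 399 of 432 member values kept their direction and their side of the threshold, 7 lost the call, 16 gained it and 10 turned sign, and of 396 values with a library left out 369 kept both, 9 lost the call, 9 gained it and 9 turned sign. The values that turned sign were uncalled throughout. In senescent DDD86481 against senescent DMSO cells HRAS was -0.0026 with DESeq2 and with RLE factors, -0.013 with upper quartile scaling and -0.0065 with no filter, and ESR1 was -0.0041, -0.0041, -0.016 and -0.0087 there, -0.0051 with a replicate block and -0.011 with limma-voom. With a library left out, HRAS ranged from -0.038 to 0.069, ESR1 from -0.096 to 0.126 and RRAS2 from -0.162 to 0.029 in that comparison, and the DDD86481 interaction of NRAS from -0.026 to 0.133. For the log2 ratio of ESR1 to HRAS reads, the value tested was the senescent mean less the control mean. With a library left out, this difference ranged from -0.0102 (without control DMSO replicate 3) to 0.0743. The exact permutation p ran from 0.419 to 0.803. In the DMSO libraries alone the difference was 0.22. With only the compared groups fitted, the members called fell from 4 to 2 for IMP1088 in control cells and from 2 to 1 for the DDD86481 interaction. With a library left out they ranged from 5 to 6 for senescent against control DMSO, 3 to 5 and 4 to 5 for IMP1088 and DDD86481 in control cells, 1 to 2 and 2 to 3 in senescent cells, and 3 to 4 and 1 to 3 for their interactions. The value of 1 in senescent cells with IMP1088 came without senescent DMSO replicate 2. Upper quartile scaling moved the median of all genes by -0.15 in senescent against control DMSO cells.

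With the replicate number as a block, 49 of 54 member values were the same in call and direction. The block called NRAS with DDD86481 in control cells (-0.22, adjusted p = 0.0348), RRAS with IMP1088 in senescent cells (-0.27, adjusted p = 0.0329), the IMP1088 interaction of RRAS (0.41, adjusted p = 0.0363) and the DDD86481 interaction of HRAS (-0.32, adjusted p = 0.0394), so that counts of members called were 6, 6, 6, 4, 5, 3, 2, 4 and 3 in the order of the 9 comparisons above. In control IMP1088 against control DMSO, where same-numbered libraries deviated together, the block changed no call. In senescent against control DMSO all 6 libraries were closest to their own number, and in the other comparisons 3 to 5 of 6. Of the 18 nearest patterns, 2 were shared with a ranking by Spearman's rho and 2 with a ranking of values centred by state.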
